A study of Mus musculus with 10 samples.

Results

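The small nucleolar RNA host genes Snhg1, Snhg3, Snhg5, Snhg6, Snhg8, Snhg12 and Gas5 were followed in RNA sequencing counts from a piece of the pancreas tail of female mice. They are the rows of the count table with these symbols. All 7 were present among 24421 genes, and all 7 were among the 13688 genes with enough counts to be tested. The group was selected on measured values: Snhg1 was among the genes with the smallest p in the comparison of Insr KO with Insr WT libraries, and the 7 genes were proposed as a group with results of that comparison known. That comparison, and the Het comparison that shares its WT libraries, are therefore described for the host genes without a test. Cytosolic ribosomal protein genes, 79 in the table and 78 tested, served as the comparison group.

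Each library came from 1 mouse aged 12 weeks. Genotypes varied at Insr, which encodes the insulin receptor. The 3 Insr WT mice had 0 floxed Insr alleles (Insrw/w), the 3 Insr Het mice had 1 (Insrw/f) and the 4 Insr KO mice had 2 (Insrf/f). All groups carried Ptf1aCreER, an inducible Cre recombinase driven by the acinar gene Ptf1a, and the fluorescent Cre reporter nTnG. A further allele that all groups shared is not reported here. Cre acts in Ptf1a-expressing cells while the tissue piece holds every cell type, and the labels give no time of induction. By the labels' count there was 1 further Insr WT mouse, not analysed here. As counts per 1e6 scaled counts (CPM), Insr averaged 29.8 ± 9.88 over WT (SD, n = 3), 38.5 ± 8.92 over Het (SD, n = 3) and 31.5 ± 5.96 over KO mice (SD, n = 4). Reads from cells without recombination and from exons outside the floxed part remain in this sum, so it does not check the labels. Libraries are named by group and mouse number, as in WT-2404.

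A small nucleolar RNA host gene is transcribed into a spliced RNA whose introns hold small nucleolar RNAs (snoRNAs). The snoRNAs are trimmed out of the introns and guide chemical modification of ribosomal RNA, with box C/D snoRNAs guiding 2'-O-methylation and box H/ACA snoRNAs guiding pseudouridylation. What is left is a spliced RNA that mostly codes for no protein. Several such RNAs, Gas5 among them, are known to begin with a 5' terminal oligopyrimidine tract (5' TOP), a C followed by a run of C and T. The messenger RNAs of ribosomal proteins begin the same way, and growth signalling through mTOR controls their translation through this start. Translated briefly in short reading frames, host RNAs are also known targets of nonsense-mediated decay, which is why Gas5 builds up in growth-arrested cells. The acinar cell, with its heavy load of secreted enzymes, is rich in ribosomes.

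The start sequences are shown because the shared 5' TOP is the reason for setting these genes beside ribosomal protein genes. Each line gives 30 bases, 10 before and 20 after the start of transcription annotated by RefSeq on GRCm38.p6, the assembly that the mm10 build of the submitters' processing notes corresponds to. Capitals mark a C followed without a break by at least 4 pyrimidines, beginning within 10 bases of the annotated start.
Snhg1, chr19:8723477-8723506, plus strand: tcttgtcggcctcatttttccttgttcggg
Snhg3, chr4:132353667-132353696, minus strand: gaccacgcctgaCTTCCgggcgttacttaa
Snhg5, chr9:88522878-88522907, minus strand: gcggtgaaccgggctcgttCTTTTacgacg
Snhg8, chr3:123508317-123508346, minus strand: gttcagaagtCTCTTTggctgcgatccgcc
Snhg12, chr4:132308668-132308697, plus strand: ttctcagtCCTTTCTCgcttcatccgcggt
Gas5, chr1:161035156-161035185, plus strand: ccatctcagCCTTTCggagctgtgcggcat
Rpl13a, a ribosomal protein gene, chr7:45128726-45128755, minus strand: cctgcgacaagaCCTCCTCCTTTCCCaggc
Rpl4, a ribosomal protein gene, chr9:64173377-64173406, plus strand: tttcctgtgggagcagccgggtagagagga
Rpl41, a ribosomal protein gene, chr10:128549149-128549178, minus strand: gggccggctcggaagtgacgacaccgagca
Rplp0, a ribosomal protein gene, chr5:115559457-115559486, plus strand: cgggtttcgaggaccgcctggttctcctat

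Of the 4 ribosomal protein genes shown, Rpl13a alone holds such a run. Of the host genes, 6 had an entry in the promoter table, and Snhg6 is named only. Gas5 had 2 annotated starts, of which the downstream one is shown, and the upstream one held no such run. A run of this kind was found at 5 of 6 host genes (83.3%), at 35 of 58 ribosomal protein genes with an entry (60.3%) and at 33.3% of all 27025 genes with an entry. Searched on the opposite strand of the same windows, the shares were 33.3%, 24.1% and 37.4%. Snhg1, the host gene with no match, begins with a C, and 9 of its first 10 bases are pyrimidines, but a purine interrupts them. The runs at the host genes were short. With at least 6 pyrimidines after the C, 1 of 6 host genes (16.7%), 28 of 58 ribosomal protein genes (48.3%) and 13.6% of all genes matched. Within 5 bases of the annotated start, the shares were 66.7%, 48.3% and 19.7%. A match describes letters near an annotated start, and annotated starts can lie away from the ones used in this tissue.

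The genes are compact. In the GENCODE M21 annotation (GRCm38), the 7 genes lie on chromosomes 1, 3, 4, 9 and 19 and hold between 1 and 10 annotated snoRNA genes each. Gas5 spans chr1:161034422-161038539 with 10 genes of the snoRNA type, 1 of them named Mir5117, and up to 12 exons, and Snhg1 spans chr19:8723475-8726443 with 8 snoRNA genes and up to 10 exons. Snhg8 and Snhg6 each hold 1 snoRNA gene. Snhg3 overlaps Rcc1 on the same strand, Gas5 overlaps Zbtb37 on the opposite strand and Snhg6 overlaps Mcmdc2 on the opposite strand, so reads there could be shared or lost, because it is not given in the sources used here whether counting used strand.

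Gene counts per library ranged from 11718559 to 19024351. The share of digestive enzyme genes was 15.7% for WT-2404, 58.3% for WT-1860, 71.4% for WT-2067 and between 62.3% and 77.3% for the 7 Het and KO libraries. WT-2404 stood apart, with a scaling factor (TMM) of 3.53 against 0.596 to 1.56 in the others. Counts assigned to no gene were 7.83% for WT-2404, 7.001% for WT-1860, 8.71% for KO-2124 and 2.60% to 5.14% for the rest. CPM values below use the library size multiplied by its TMM factor. Nothing in the labels says how the mice were related, so the spread between libraries is that between these mice. In a bulk sample, fewer cells of a type and less RNA per cell cannot be told apart.

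Gas5 was the most abundant host gene per transcript length in each group. With CPM divided by the median length of its basic GENCODE transcripts, Gas5 stood at 110 ± 6.75 CPM per kilobase in KO libraries (SD, n = 4), and Snhg1 followed at 30.2 ± 5.20. The remaining 5 lay close together in KO libraries, from Snhg6 at 11.4 ± 6.13 through Snhg8 at 9.09 ± 2.36, Snhg3 at 7.83 ± 1.36 and Snhg12 at 6.62 ± 1.25 to Snhg5 at 4.28 ± 1.45 CPM per kilobase (SD, n = 4 each). Each of these 5 differed from its neighbour in that order by less than the larger of the 2 SDs, except Snhg12 and Snhg5. In WT libraries Gas5 was at 87.4 ± 6.57, Snhg1 at 15.6 ± 1.73 and the other 5 between 4.58 and 7.81 CPM per kilobase (means, n = 3). The median ribosomal protein gene stood at 215 CPM per kilobase in WT, 390 in Het and 389 in KO libraries, above every host gene in the same group.

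Snhg1 had the largest KO against WT estimate of the 7. WT-2404, WT-1860 and WT-2067 had 8.50, 7.65 and 9.55 CPM of it, from counts of 509, 140 and 156. In the KO libraries it was 16.3 CPM in KO-2079, 12.8 in KO-2070, 18.02 in KO-2124 and 19.4 in KO-2126, from counts of 264, 97, 391 and 192. All 4 KO libraries lay above all 3 WT libraries. The log2 fold change fitted by edgeR was 0.96 (SE 0.20), a 1.95-fold higher level.

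Gas5, whose RNA accumulates when growth stops and which hosts the largest snoRNA set of the group, differed less but also without overlap. It was at 40.2, 46.6 and 44.8 CPM in WT-2404, WT-1860 and WT-2067, and at 55.6, 53.5, 60.0 and 52.3 CPM in KO-2079, KO-2070, KO-2124 and KO-2126. The fitted log2 fold change was 0.34 (SE 0.18). With 406 to 2408 counts per library, Gas5 had the smallest SE of the 7.

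Snhg12, host of box H/ACA snoRNAs and of the C/D snoRNA Snord99, was the third gene without overlap. Its levels were 5.14, 4.21 and 4.53 CPM in WT-2404, WT-1860 and WT-2067 and 6.37, 5.40, 8.43 and 6.57 CPM in KO-2079, KO-2070, KO-2124 and KO-2126. The lowest KO library lay just above the highest WT library, and the log2 fold change was 0.54 (SE 0.21). Thus every KO library lay above every WT library for 3 of 7 host genes, as for 6.74% of all 13688 tested genes. For 0 of 7 did every KO library lie below, as for 9.17% of genes. The estimate was above 0 for 6 of 7, as for 51.8% of genes. Since this comparison chose the genes, nothing is read from these counts.

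The other 4 host genes overlapped between WT and KO libraries. Snhg3, host of the H/ACA snoRNAs Snora73a and Snora73b, was at 2.07 to 3.80 CPM in WT and 3.71 to 5.56 CPM in KO libraries, with a log2 fold change of 0.60 (SE 0.31), or 0.36 without WT-2404. Snhg6, host of Snord87, was at 2.67 to 6.49 CPM in WT and 3.82 to 12.9 CPM in KO libraries, with 0.87 (SE 0.45). Its highest value belonged to KO-2124, and the log2 fold change was 0.41 without that library and 1.35 without WT-2067. Snhg8, host of Snora24, was at 3.19 to 4.65 CPM in WT and 3.33 to 5.48 CPM in KO libraries, with 0.24 (SE 0.28). Leaving out 1 library moved Snhg8 between 0.11, without KO-2124, and 0.40, without WT-1860.

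Snhg5, host of Snord50a and Snord50b, was the only one of the 7 with a negative estimate in KO against WT. WT-2404, WT-1860 and WT-2067 held 5.73, 4.65 and 3.55 CPM of it. The values were 4.45, 2.77, 5.35 and 2.73 CPM in KO-2079, KO-2070, KO-2124 and KO-2126. KO-2079 and KO-2124 lay within the WT range and the other KO libraries below it. The log2 fold change was -0.26 (SE 0.30). Leaving out WT-2404 gave -0.066, and leaving out KO-2124 gave -0.48. Across the 7 genes the median log2 fold change was 0.54, against 0.03 over all genes tested.

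**Figure D1:**
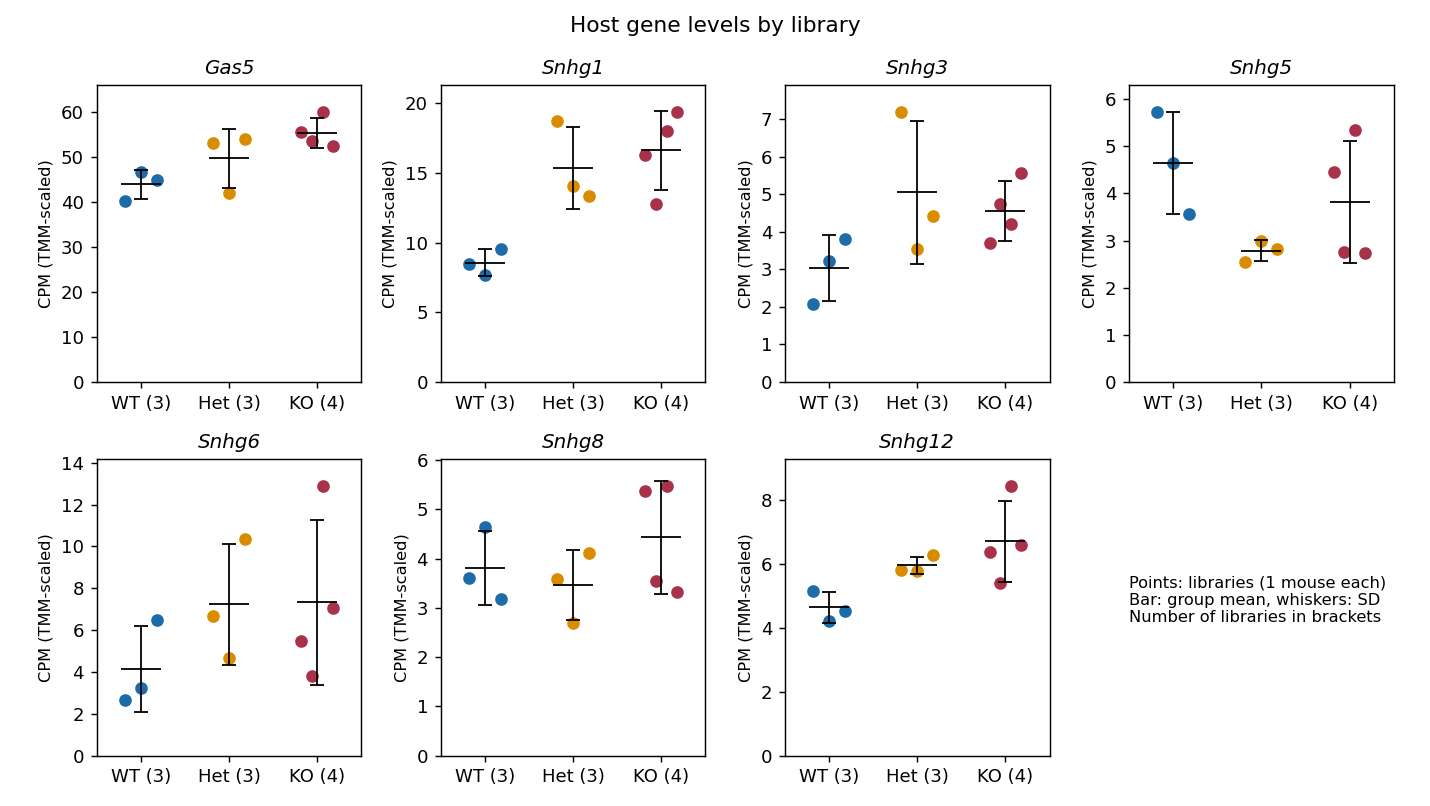
Levels of the 7 host genes in CPM (vertical axis, linear, a separate scale for each gene) in the 3 WT, 3 Het and 4 KO libraries. Points are libraries, bars are group means and whiskers are SD; Snhg1, Snhg12 and Gas5 have every KO point above every WT point, and Snhg5 has its highest point in WT.

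These directions depended on how libraries were scaled. DESeq2 size factors, and TMM computed outside the enzyme genes, gave KO against WT log2 fold changes of the same sign for all 7 genes. With library size alone, 6 of the 7 turned or stayed negative, as in Snhg1 at -0.20, Gas5 at -0.79 and Snhg12 at -0.65, and Snhg6 was at 0.11. Under that scaling the median of all tested genes moved from 0.03 to -1.17, and 6 of 7 host genes stayed above this shift, with Snhg5 at -1.48 below it. The raw share was highest in WT-2404, where Gas5 made up 142 per 1e6 gene counts, against 31.2 to 81.6 in KO libraries. WT-2404 was also the library with the fewest enzyme counts, and the part of the enzyme share in these levels was not tested.

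**Figure D2:**
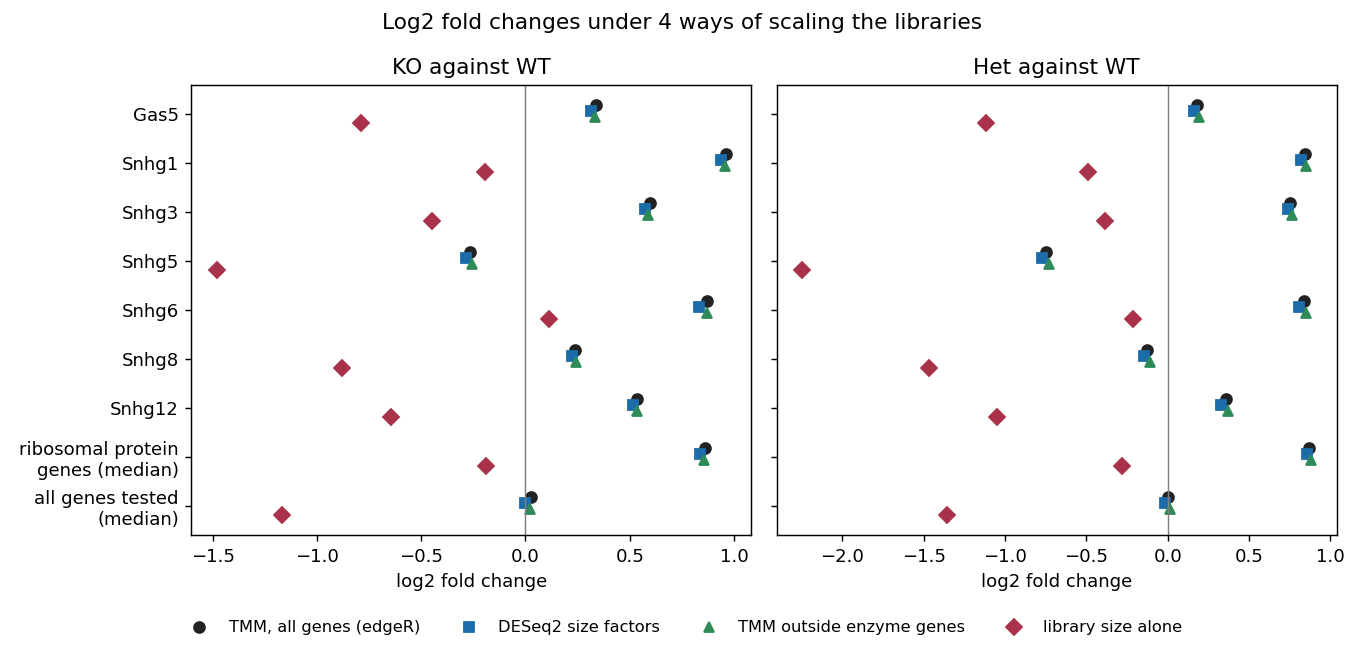
Log2 fold changes (horizontal axis) of each host gene, and the medians of ribosomal protein genes and of all genes tested, for KO against WT and Het against WT under 4 ways of scaling. The other 3 scalings nearly coincide, and library size alone moves every item to the left, including the median of all genes, to -1.17 and -1.36.

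Het against WT shares its WT libraries with the KO comparison, so its values only stand beside those above. Snhg1 was at 18.8 CPM in Het-2066, 14.1 in Het-1770 and 13.3 in Het-2042, above all WT libraries, with a log2 fold change of 0.84 (SE 0.21). Snhg12 was also separately higher, at 5.79, 5.78 and 6.26 CPM in these libraries (log2 fold change 0.36, SE 0.22). Gas5 was at 53.1, 42.0 and 53.9 CPM, so Het-1770 lay within the WT range (0.18, SE 0.19). Snhg5 was at 2.54, 2.98 and 2.82 CPM, below all WT libraries, with a log2 fold change of -0.75 (SE 0.32). In all, 2 of 7 host genes had every Het library above every WT library, against 11.3% of all tested genes, and 1 had every Het library below, against 13.5%. The estimate was above 0 for 5 of 7, against 50.3%. Snhg3 was at 0.75 (SE 0.33), Snhg6 at 0.84 (SE 0.47) and Snhg8 at -0.13 (SE 0.30). Without Het-2066, in which it was at 7.19 CPM, Snhg3 was at 0.42. Without Het-2042, in which it was at 10.4 CPM, Snhg6 was at 0.48, and without WT-2067 at 1.32. The sign of Snhg8 changed without WT-1860 (0.03) or without Het-1770 (0.02), and Gas5 was at 0.29 without Het-1770.

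KO against Het asks whether the second floxed allele adds to the first. It shares its KO libraries with the comparison that chose the genes, so the host genes are described here too without a test. All 7 overlapped between the groups. Of all 13688 genes, 0% passed in edgeR and 0% in DESeq2, 0.752% had an unadjusted edgeR p under 0.05, and 1.30% had every KO library above every Het library (1.16% below). The estimate was above 0 for 6 of 7 host genes, against 51.4% of genes. The log2 difference for Snhg1 was 0.12 (SE 0.20), for Gas5 0.16 (SE 0.18) and for Snhg12 0.18 (SE 0.21). Snhg5 was at 0.48 (SE 0.31) and Snhg8 at 0.37 (SE 0.29), while Snhg6 at 0.03 (SE 0.44) and Snhg3 at -0.16 (SE 0.31) were lowest. All 7 estimates moved by over 1.5 times when 1 library was left out. Snhg1 ran from 0.02 without Het-2042 to 0.29 without Het-2066, and Snhg3 from -0.35 without Het-1770 to 0.18 without Het-2066. Snhg6 ran from -0.43 without KO-2124 to 0.39 without Het-2042. Without KO-2124, Snhg12 was at 0.02 and Snhg5 at 0.26, and without Het-1770, Gas5 was at 0.05 and Snhg8 at 0.22.

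The fit across all genes gives the background of the other contrasts. For KO against WT edgeR called 0% of 13688 genes at an adjusted p of 0.05 (smallest adjusted p = 0.116), 23.5% had an unadjusted p under 0.05, and DESeq2 called 7.37%. In Het against WT the shares were 0% (smallest adjusted p in edgeR = 0.183), 19.8% and 2.92%. Without WT-2067 edgeR called 1933 and 1158 genes in these comparisons.

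Ribosomal protein genes differed between the groups by more than most host genes. Their median log2 fold change was 0.86 for KO against WT, with 77 of 78 above 0 (51.8% of all tested genes) and 64 separately higher (6.74% of all). For Het against WT it was 0.87, with 75 of 78 above 0 (50.3% of all) and 74 separately higher (11.3% of all). In edgeR 0 of 78 passed in either comparison. DESeq2 called 65 and 56 as higher, against 2.15% and 1.12% of all tested genes. Rpl4, Rpl41 and Rpl13a, the most abundant of them, had KO against WT log2 fold changes of 0.84 (SE 0.36), 0.97 (SE 0.37) and 1.01 (SE 0.34). The extremes were Rpl32 at 1.22 and Rps25 at 1.19 on one side, and Rpl30 at 0.05 and Rps27 at -0.31 on the other, the latter 2 with mean levels of 0.719 and 0.474 CPM. Reads of these short genes may be split among their pseudogenes. Against these medians, Snhg1 at 0.96 and Snhg6 at 0.87 were the only host genes above the ribosomal value for KO, and no host gene (0 of 7) was above it for Het, where Snhg1 came closest at 0.84. Leaving out 1 library changed which genes were above. For KO, Snhg1 was below without WT-2067, and Snhg6 was below without WT-2404, WT-1860 or KO-2124. For Het, Snhg1 was above without WT-2404 (0.85 against 0.69) or Het-2042 (0.94 against 0.89). Snhg6 was above for Het without WT-2067 (1.32 against 1.11), Het-2066 (0.90 against 0.79) or Het-1770 (1.07 against 0.93), and Snhg3 without Het-1770 (0.95). For KO against Het the ribosomal median was -0.02 and that of the host genes 0.16.

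Within a library, the difference between the 2 lists hardly depends on the scaling factor, which enters only through the prior count. The mean log2 CPM of the host genes averaged 2.65 ± 0.0989 over WT mice (SD, n = 3), 2.94 ± 0.198 over Het mice (SD, n = 3) and 3.09 ± 0.257 over KO mice (SD, n = 4). For ribosomal protein genes it was 7.02 ± 0.420, 7.88 ± 0.134 and 7.88 ± 0.0797. Host genes minus ribosomal protein genes came to -4.03 for WT-2404, -4.41 for WT-1860 and -4.67 for WT-2067. The Het libraries were at -4.96, -5.05 and -4.79 in Het-2066, Het-1770 and Het-2042, all below the WT libraries. KO-2079, KO-2070 and KO-2126 were at -4.78, -5.16 and -4.88, also below, while KO-2124 at -4.36 lay within the WT range. The 3 highest differences belonged to WT-2404, WT-1860 and KO-2124. These were the 3 libraries with the largest shares of counts assigned to no gene. They were also the 3 with the lowest digestive enzyme shares, at 15.7%, 58.3% and 62.3%, and with the highest TMM factors. The parts of these in the difference cannot be told apart here and were not tested. The mean difference between KO and WT was -0.42, from -0.57 without WT-2067 to -0.26 without WT-2404.

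**Figure D3:**
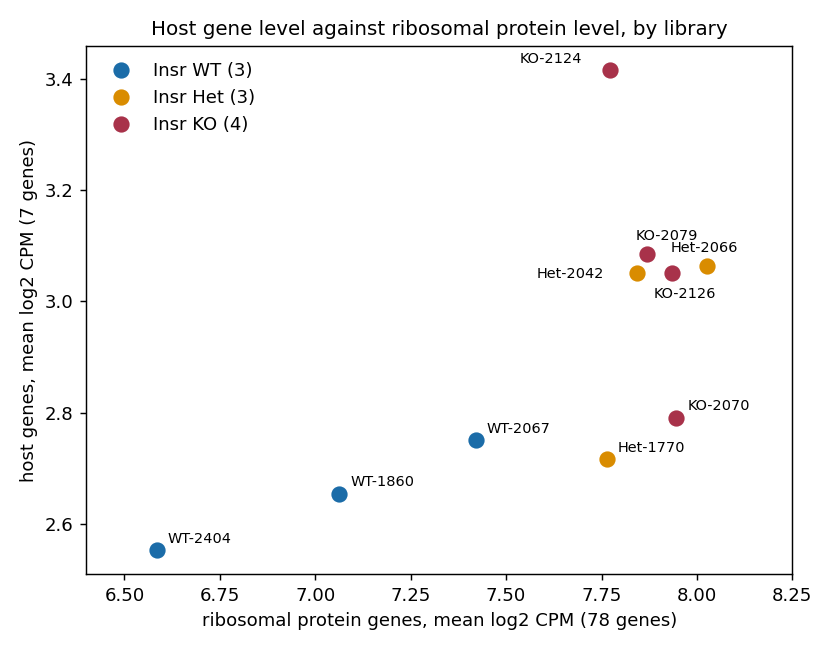
Mean log2 CPM of the 7 host genes (vertical axis) against the mean log2 CPM of 78 ribosomal protein genes (horizontal axis), 1 point per library. The WT libraries lie at the lower left, with ribosomal means of 6.58 to 7.42, and KO-2124 has the highest host gene mean at 3.42.

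The same comparison can be read from raw counts, as host gene counts per 1000 ribosomal protein counts of the same library. Gas5 had 3.98, 3.24 and 2.45 in WT-2404, WT-1860 and WT-2067, against 1.76, 1.73 and 2.14 in Het-2066, Het-1770 and Het-2042. In KO-2079, KO-2070, KO-2124 and KO-2126 it had 2.17, 1.94, 2.44 and 1.88. Every Het and KO library lay below every WT library, KO-2124 by a very small margin. Gas5 was thus higher in CPM and lower per ribosomal protein count in the same KO libraries. Snhg1 was also higher in CPM in every KO than in every WT library, but showed no such order per ribosomal protein count. Its ratio averaged 0.632 ± 0.182 for WT (SD, n = 3), 0.576 ± 0.0461 for Het (SD, n = 3) and 0.632 ± 0.120 for KO mice (SD, n = 4). For this ratio the groups overlapped in each pair.

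For Snhg5 the ratio averaged 0.362 ± 0.190 over WT (SD, n = 3), 0.106 ± 0.0200 over Het (SD, n = 3) and 0.147 ± 0.0584 over KO mice (SD, n = 4). The Het values lay below the WT range. Snhg3 was at 0.205 to 0.224 in WT and 0.145 to 0.200 in KO libraries, without overlap, and Snhg8 was separately lower in Het. In KO against WT 2 of 7 host genes, Snhg3 and Gas5, were separately lower per ribosomal count. Of the 13610 tested genes outside the ribosomal protein genes, host genes included, 53.7% were. In Het against WT 3 of 7 were, Snhg5, Snhg8 and Gas5, against 62.2%. No host gene was separately higher (0 of 7), against 0.0882% and 0.184% of genes. For KO against Het all 7 overlapped, against 0.904% of genes separately lower and 0.970% separately higher. The denominator is shared by all genes, and a small set of 7 can take few values of such a share.

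**Figure D4:**
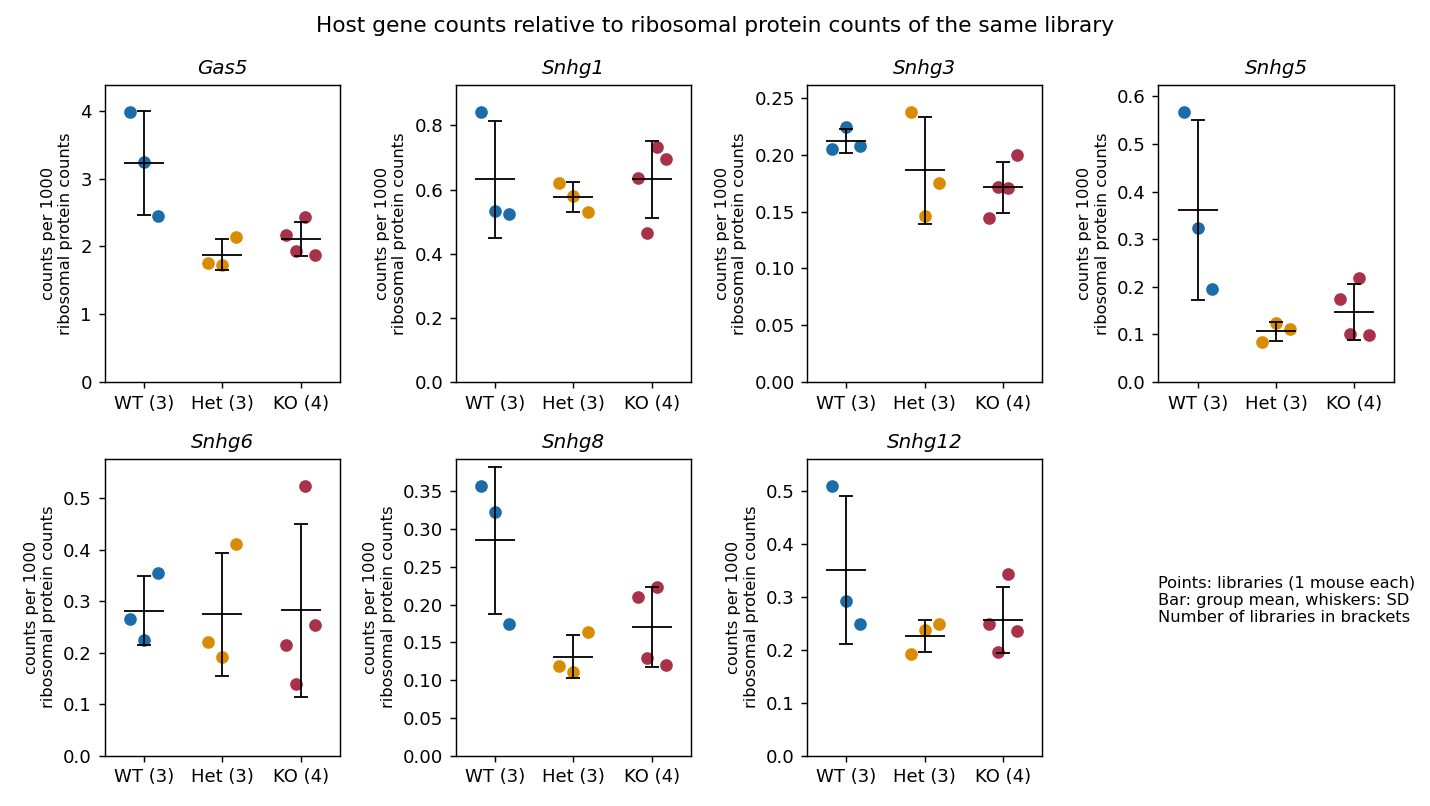
Host gene counts per 1000 ribosomal protein counts (vertical axis, linear, a separate scale for each gene) in the 3 WT, 3 Het and 4 KO libraries, with group means and SD. Gas5 lies lower in every Het and KO library than in WT, and the Snhg1 groups overlap at means of 0.632, 0.576 and 0.632.

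The host genes did not vary as 1 unit. Over the 10 libraries, Pearson's r between pairs of host genes (log2 CPM) ran from -0.76 for Snhg3 with Snhg5 to 0.83 for Snhg1 with Snhg12, as a description of libraries that share scaling and tissue makeup. Snhg5 had a negative r with Snhg1, Snhg3, Snhg6 and Gas5. Without WT-2404, r was -0.64 for Snhg3 with Snhg5 and 0.84 for Snhg1 with Snhg12, while those of Snhg5 with Snhg6 and Gas5 turned positive, to 0.095 and 0.21. The genes most like the mean of the 7 were Bcl7a, at r = 0.939, Zgpat at 0.926, Stap2 at 0.916, Taf1d at 0.893 and Trub1 at 0.892. Likeness was Pearson's r of log2 CPM over the 10 libraries. Among the 50 most alike were 8 of the 78 ribosomal protein genes, and 5 without WT-2404. The ribosomal protein genes had a median r of 0.667 with the host mean, against 0.00885 over all genes, and 0.548 without WT-2404. The 10 libraries include those of the comparison that chose the host genes. Genes that differ there in the same direction are alike for that reason too, so nothing is read from these values.

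Markers of other cell types also differed in level between libraries, with no marker passing in edgeR (0 genes of any list, as for 0% of all genes). Estimates above 0 in KO against WT made up 51.8% of all tested genes. All 16 leukocyte markers had negative KO against WT estimates, with a summed level of 339 to 1221 CPM in WT, 184 to 259 in Het and 101 to 376 in KO libraries. Of 12 fibroblast markers 11 were negative, with sums of 1399 to 4664 CPM in WT, 615 to 1122 in Het and 567 to 1280 in KO libraries. Of 10 ductal markers 8 were negative, with sums of 1089 to 1640 CPM in WT, 564 to 942 in Het and 570 to 936 in KO libraries. Of 10 islet markers 9 were positive, with sums of 478 to 5715, 4974 to 9909 and 3614 to 8562 CPM, and of 6 adipocyte markers 5 were positive, with sums of 32.6 to 41.0, 53.4 to 70.6 and 39.1 to 81.7 CPM. The WT and KO sums overlapped for leukocyte, islet and adipocyte markers and did not overlap for fibroblast and ductal markers. DESeq2 called 6 of 16 leukocyte, 7 of 12 fibroblast and 6 of 10 ductal markers as lower in KO against WT. Over all genes it called 715 of 13688 as lower. It called 0 islet and 0 adipocyte markers in either direction. Separately lower in KO libraries were 1 of 16 leukocyte, 7 of 12 fibroblast and 7 of 10 ductal markers, against 9.17% of all tested genes. Of 27 tested digestive enzyme genes 26 were positive, and DESeq2 called 1 as higher, against 2.15% of all tested genes. No marker of the cell types other than acinar cells was at 0 throughout a group (0 genes). The part of these cells in the host gene values was not tested.

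Of 13 other non-coding snoRNA hosts listed, all were in the table, 4 under older symbols, and 12 were tested. In edgeR 0 of 12 passed in KO against WT, where 11 estimates were above 0 (51.8% of all genes), 2 genes were separately higher (6.74%) and the median log2 fold change was 0.56, against 0.03 over all genes. Snhg18 was at 11.1 to 14.2 CPM in WT and 17.1 to 22.7 CPM in KO libraries, without overlap (log2 fold change 0.52, SE 0.17, edgeR adjusted p = 0.127). Zfas1, listed as 1500012F01Rik and also an RNA with a 5' TOP, averaged 12.7 ± 2.66 CPM over WT (SD, n = 3) and 19.4 ± 4.12 over KO mice (SD, n = 4), with overlap (0.61, SE 0.25, edgeR adjusted p = 0.171). Epb41l4aos, listed as Epb4.1l4aos, was the other gene without overlap, at 3.28 to 3.68 CPM in WT and 3.82 to 8.06 CPM in KO libraries. Snhg15, listed as Gm11974, was at 1.05 (SE 0.38, edgeR adjusted p = 0.141) and Snhg11 was lowest at -0.49 (SE 0.49, edgeR adjusted p = 0.558). The highest of the 12 estimates was 1.595, for Snhg9, from very low levels. Snhg9 was at 0.12 to 0.30 CPM in WT and 0 to 1.45 CPM in KO libraries, with overlap, and its KO counts ran from 0 to 23. DESeq2 called 1 of the 12 as higher, against 2.15% of all tested genes, and for Het against WT also 1, against 1.12%.

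Protein-coding genes that host snoRNAs had a median KO against WT log2 fold change of 0.34. Of 16 tested, 14 were above 0, against 51.8% of all tested genes, and 5 were separately higher, against 6.74%. In edgeR 0 passed, as for 0% of all genes, and DESeq2 called 4 as higher, against 2.15%. The highest were Tpt1 at 1.11 (SE 0.37, edgeR adjusted p = 0.129), which encodes the translationally controlled tumour protein, and Eef1b2, a translation elongation factor subunit, at 1.05 (SE 0.30, edgeR adjusted p = 0.116). The lowest were the chaperone gene Hspa8 at -0.29 (SE 0.24, edgeR adjusted p = 0.476) and Nop58, a core protein of box C/D particles, at -0.25 (SE 0.25, edgeR adjusted p = 0.566).

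Genes for the proteins that hold and use snoRNAs had a median KO against WT log2 fold change of 0.09, against 0.03 over all genes. Of 8 tested, 6 were above 0 (51.8% of all genes), 0 were separately higher (6.74%) or lower (9.17%), and 0 passed in edgeR (0%) or DESeq2 (7.37%). Their estimates ran from -0.25 for Nop58 to 0.39 for Nop10. Fbl, the methyltransferase of box C/D particles, was at 0.07 (SE 0.18), and Dkc1, the pseudouridine synthase of box H/ACA particles, at 0.36 (SE 0.25). Of 10 factors of nonsense-mediated decay, the route that degrades host RNAs, 9 were above 0 (51.8% of all genes) with a median of 0.21, 2 were separately higher (6.74%), and 0 passed in edgeR or DESeq2. The highest were Upf3a at 0.71 (SE 0.22, edgeR adjusted p = 0.122) and Upf2 at 0.60 (SE 0.24, edgeR adjusted p = 0.161), and Smg9 was lowest at -0.43 (SE 0.28, edgeR adjusted p = 0.351). Upf3a was 1 of the 2 separately higher factors, while Upf2 overlapped between WT and KO libraries. Of 7 proteins that bind or act on 5' TOP messages, 6 were above 0 (51.8% of all genes) and 1 was separately higher (6.74%). None passed in edgeR (0 of 7, 0% of all genes) or DESeq2 (0 of 7, 7.37%). Their estimates ran from -0.46 to 0.85, with a median of 0.42. The highest was Larp1, which binds the TOP start (SE 0.41, edgeR adjusted p = 0.227). Its range was 43.6 to 129 CPM in WT and 84.1 to 224 CPM in KO libraries, with overlap.

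Genes next to the hosts were examined because several share a start region or a strand. Slc3a2, whose annotated span begins 106 bases from Snhg1 on the opposite strand, had a log2 fold change of 0.47 (SE 0.36, edgeR adjusted p = 0.439), against 0.96 for Snhg1. Rcc1, which overlaps Snhg3, was at -1.33 (SE 0.43, edgeR adjusted p = 0.125), opposite in sign to Snhg3. Zbtb37, opposite Gas5, was at -0.58 (SE 0.66, edgeR adjusted p = 0.608). The 7 neighbours listed do not include Mcmdc2, which overlaps Snhg6, or Zfp949, the nearest coding gene to Snhg5. Of the 7, 2 were separately lower in KO, Rcc1 and Zbtb37, against 9.17% of all tested genes. None passed in edgeR (0 of 7), and DESeq2 called 1, Rcc1, against 7.37% of all genes in either direction.

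The snoRNAs that had a row held few counts. Of 28 snoRNAs listed for the 7 hosts, 8 had a row, 1 of these had no count and 4 had at least 10 counts over all libraries. Several snoRNA genes inside Snhg1 and Gas5 are annotated under names that were not on the list, such as Gm25855 and Gm26224. A missing row therefore does not show that a snoRNA had no counts. Snora16a, Snora61 and Snora44, all inside Snhg12, had 20, 18 and 13 counts in all. Snord22, inside Snhg1, had 199. It had 99 of them in KO-2124, or 25.3 per 100 counts of Snhg1, and 0.589 per 100 in WT-2404 with 3 counts. In the other 8 libraries it had 2.60 to 15.0 per 100 counts of Snhg1. KO-2124 also had the largest share of counts assigned to no gene, at 8.71%. WT-2404, with the lowest Snord22 ratio, had the next largest share, at 7.83%. The part of these counts in the Snord22 value was not tested.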

How the data were processed

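The deposited table holds raw read counts per gene, 1 column per mouse and no normalization, judged from its whole numbers. The submitters' processing notes name mm10, DRAGEN, STAR and Cufflinks without a role; the counting settings, library kit and strand use are not given in the sources used here. The 2 rows that name no gene were left out of library sizes and tests. Genes were filtered with filterByExpr (minimum count 10), scaled by TMM and fitted over all 10 libraries in edgeR 4.0.16 (quasi-likelihood, robust) under R 4.3.3, with Benjamini-Hochberg adjustment over 13688 genes and a threshold of 0.05. Log2 CPM values used a prior count of 2. DESeq2 1.42.0, other scalings, another filter, 2-group fits and leaving out each library were alternatives. The code was tested on simulated data. Gene spans and lengths came from GENCODE M21, start sequences from RefSeq. All host genes were named; other non-coding hosts and snoRNA-binding proteins could be named freely, other lists by their 2 highest and 2 lowest genes, and ribosomal protein genes also by their 3 most abundant. The members and lists were chosen with earlier results of these data known.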

Additional observations from a re-analysis of the deposited data

Results flagged for a closer look

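Among 11 measures checked in the 4 KO libraries, 1 library stood far from the other 3 by Dixon's test. Snord22, a snoRNA inside Snhg1, was at 4.56 CPM in KO-2124 while the remaining KO libraries had 0.505 to 0.658 CPM. The gap was 0.962 of the group's range, above Dixon's 95% critical value for 4 samples. Chance flags about 5% of groups, or 0.55 of 11 measures.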

How the results depend on the processing

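The 7 host genes gave 315 values under the alternatives to TMM scaling, the filter, the fit and the set of libraries. Of these 16 moved by more than the spread between replicates, all 16 with library size alone. With library size alone the median log2 fold change of the host genes was -0.65 for KO against WT and -1.05 for Het against WT, and the median of all genes was -1.17 and -1.36. The number of genes edgeR called then went from 0 to 2835 and 3125, and DESeq2 called 1009 and 400. Leaving out 1 library gave 0 to 1933 genes for KO against WT and 0 to 1158 for Het against WT, both highest without WT-2067, and 0 for KO against Het. The host median then ran from 0.36 to 0.57, from 0.29 to 0.46 and from 0.05 to 0.23 in the 3 comparisons. The cause of these shifts was not tested. Host minus ribosomal protein genes for KO against Het was 0.14, and -0.0060 without KO-2124. No paired analysis was possible because the mouse numbers are not shared between groups. The lowest host gene count, 21 for Snhg5 in KO-2070, limits precision there.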
